A study of Mus musculus with 5 samples.

Results

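The genes described here encode the Wnt ligands, the Frizzled receptors that bind them and the secreted antagonists of the Sfrp and Dkk families. They were chosen by family from the GENCODE vM1 annotation of the mouse mm9 genome, without use of a measured value. Earlier results of these data were, however, known when the choice was made. All 38 symbols were found: 19 ligands, 10 receptors and 9 antagonists, out of 22350 protein-coding genes on chromosomes 1 to 19 and X. Mouse embryonic fibroblasts (MEFs) were profiled for H3K27me3, the trimethylated lysine of histone H3 that Polycomb Repressive Complex 2 (PRC2) deposits, by ChIP-Seq, in which chromatin is immunoprecipitated and its DNA sequenced. The lists of enriched regions came from 3 lines, each with 1 library. The K27R line expressed H3.3 with arginine in place of lysine at residue 27, the K27M line expressed H3.3 with methionine there, and the EZHIP line expressed human EZHIP (hEZHIP), a protein found in PFA ependymoma. All of these lines derived from MEFs of an embryo whose EED gene carries exons flanked by loxP sites, and Cre was used for the EEDnull line. The transgenes were stably delivered by a lentivirus with an EF1a promoter and puromycin selection. The parental Control line and the EEDnull line, a single clone, were not analysed here. K27R MEFs were transduced in the same manner and carry neither inhibitor by their labels, and their list served as the reference for the other lists.

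Wnt proteins are lipid-modified, secreted signals that bind Frizzled receptors together with Lrp5 or Lrp6. This stabilizes β-catenin, which activates target genes with Tcf and Lef factors, while other Wnt proteins act through Ror and Ryk on cell polarity and movement. Sfrp proteins bind Wnt ligands outside the cell, and Dkk1 and its close relatives bind Lrp5 and Lrp6. PRC2 keeps many such developmental genes silent in cells that do not use them, and CpG islands, stretches rich in the dinucleotide CG, are sites where PRC2 is recruited in mammals. K27M and EZHIP both inhibit the catalytic activity of PRC2.

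The question addressed was which Wnt genes lay in H3K27me3 regions of the K27R line and which of these still did so in lines with a PRC2 inhibitor. A gene was counted as marked in a line when its start site, the annotated 5′ end, lay inside a region of that line's list. In K27R MEFs 25 of 38 genes (65.8%) were marked, in K27M MEFs 15 (39.5%) and in EZHIP MEFs 15 (39.5%). Of all protein-coding genes, the K27R regions held the start sites of 30.1%, the K27M regions 9.02% and the EZHIP regions 7.73%. The classes differed in their counts. Of 19 ligands, 16, 11 and 10 were marked in K27R, K27M and EZHIP (84.2%, 57.9% and 52.6%), and of 9 antagonists 6, 4 and 5 (66.7%, 44.4% and 55.6%), whereas receptors were marked at 3 of 10 in K27R and at 0 of 10 in both inhibitor lines. The receptor share in K27R, 30%, was close to that of all genes. For the inhibitor lines, 10 receptors are too few to set a count of 0 apart from the 9.02% and 7.73% of all genes. Of all genes marked in K27R, 66.5% were marked in neither inhibitor line. With 1 library in each group there is no replicate spread and no test. These counts describe single libraries, and the genes of a family are not replicates. The lists hold positions without read counts, so depth is unknown, and the absence of a region does not show the absence of the mark. A bulk profile cannot tell fewer marked cells from less mark in each cell.

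**Figure D1:**
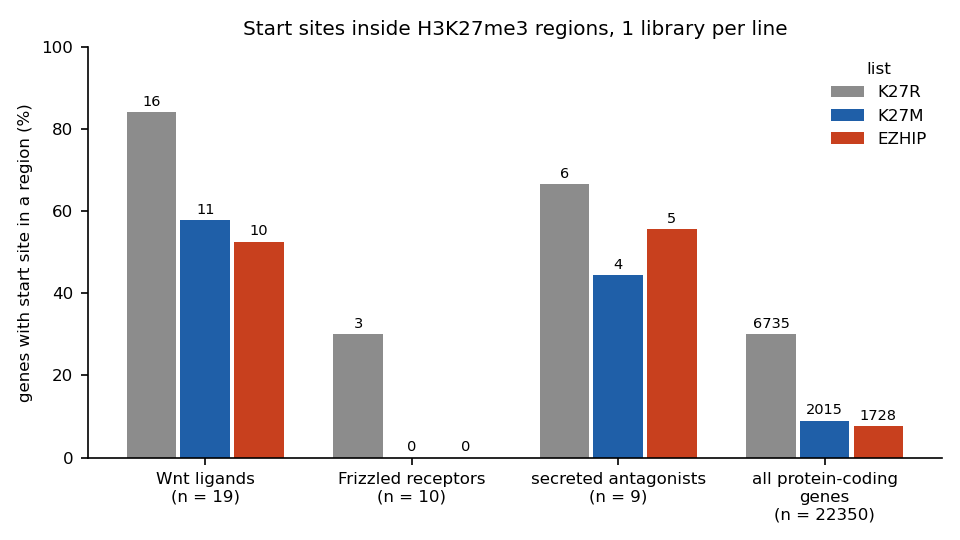
Percent of genes whose start site lay in an H3K27me3 region (y axis) for ligands, receptors, antagonists and all protein-coding genes, in the K27R, K27M and EZHIP lists (grey, blue and red bars, 1 library each), with the number of genes above each bar. Ligands and antagonists stood above all genes in each list, and no receptor bar remained in K27M or EZHIP.

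Among the 25 genes marked in K27R, 12 were marked in both inhibitor lines, 3 in K27M but not EZHIP, 3 in EZHIP but not K27M, and 7 in neither. Of all 6735 genes marked in K27R, 535 were marked in K27M but not EZHIP and 248 in EZHIP but not K27M. No Wnt gene was marked in an inhibitor line without being marked in K27R, which also held for nearly all genes. Of all protein-coding genes, 2011 of 2015 marked in K27M and 1724 of 1728 marked in EZHIP were also marked in K27R. Of the 25 Wnt genes, the share kept in both lines was 48.0%, against 21.9% of all 6735 genes marked in K27R. The share kept in K27M was 60.0%, and the same share was kept in EZHIP, against 29.9% and 25.6% of all K27R-marked genes. Conversely, 28.0% of the Wnt genes were kept in neither, against 66.5% of all. Ligands accounted for 9 of the 12 genes kept in both and antagonists for 3.

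The regions that remained were also narrower. Over the members marked in each line, the region at the start site in the K27R line had a median width of 60.4 kb (95% interval of the median from order statistics 43.4 to 99.6, n = 25 genes). The median was 22.6 kb for K27M (10.0 to 44.6, n = 15) and 13.2 kb for EZHIP (7.8 to 22.0, n = 15). The intervals treat the genes as independent draws and say nothing about the spread among libraries. The genes are not all independent, since Wnt3 and Wnt9b, Wnt3a and Wnt9a, and Wnt6 and Wnt10a each share a K27R region. Wnt3 and Wnt9b also share their K27M region. For all protein-coding genes the corresponding medians were 96.8, 11.8 and 8.4 kb, so that Wnt genes lay in narrower regions than the typical marked gene in K27R and in wider ones in K27M and EZHIP, although each median of all genes fell within the interval of the members. At the 12 genes kept in both lines the EZHIP region was narrower than the K27M region in 11, the exception being Wnt2b at 5.2 against 4.8 kb. At 9 of the 12 the whole EZHIP region lay inside the K27M region, and at Wnt2b, Wnt8b and Wnt9b 92.3%, 99.1% and 98.4% of it did. These counts were not made for all genes kept in both lines. Narrower EZHIP regions were not particular to the Wnt genes, since the median over all regions was 6.8 kb in K27M and 4.4 kb in EZHIP.

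**Figure D2:**
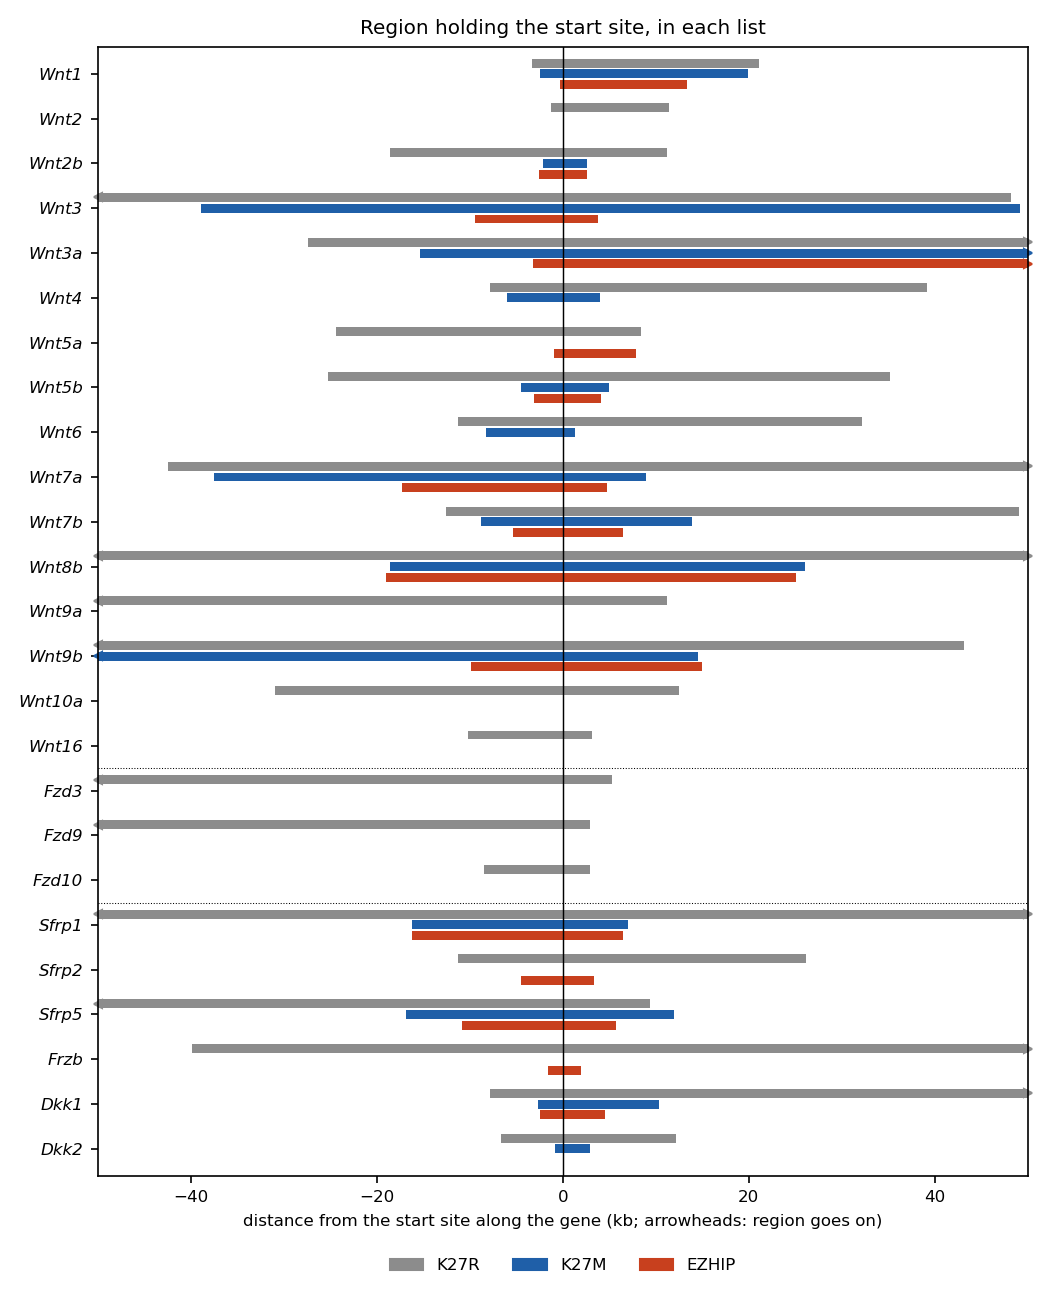
Region that holds the start site in the K27R, K27M and EZHIP lists (grey, blue and red bars) for the 25 genes marked in K27R, drawn by distance from the start site along the direction of the gene (x axis, kb). Dotted lines separate ligands, receptors and antagonists, and the inhibitor bars lie close around the start site at most genes while K27R bars extend further.

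Of the ligands, Wnt3a, which drives formation of the somites, had the longest stretch common to both inhibitor lists. Its K27R region spanned 86.0 kb (chr11:59045601-59131600), its K27M region 71.0 kb (chr11:59048601-59119600) and its EZHIP region 54.8 kb (chr11:59052601-59107400). All 3 covered the whole gene. Wnt9a, which takes part in joint formation, starts 16.2 kb away and is transcribed in the opposite direction. The start sites of both genes lay in the same K27R region. At Wnt9a, however, no region of either inhibitor line held the start site. The K27M region ended 830 bp before it and an EZHIP region of 3.2 kb ended 5430 bp before it. The promoters of this pair, from 250 bases before to 50 bases after the start site in mm9, are shown because 1 was kept and the other was not within a single K27R region, and capitals mark each CG, which reads the same on both strands.
Wnt3a (chr11:59104205-59104504, minus strand): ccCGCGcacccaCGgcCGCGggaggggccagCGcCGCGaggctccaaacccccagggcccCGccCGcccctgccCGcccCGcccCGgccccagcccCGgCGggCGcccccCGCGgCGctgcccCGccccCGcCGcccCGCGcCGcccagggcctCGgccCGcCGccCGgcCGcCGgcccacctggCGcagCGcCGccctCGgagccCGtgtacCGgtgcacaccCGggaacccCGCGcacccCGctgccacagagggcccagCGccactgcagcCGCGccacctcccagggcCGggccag
Wnt9a (chr11:59120180-59120479, plus strand): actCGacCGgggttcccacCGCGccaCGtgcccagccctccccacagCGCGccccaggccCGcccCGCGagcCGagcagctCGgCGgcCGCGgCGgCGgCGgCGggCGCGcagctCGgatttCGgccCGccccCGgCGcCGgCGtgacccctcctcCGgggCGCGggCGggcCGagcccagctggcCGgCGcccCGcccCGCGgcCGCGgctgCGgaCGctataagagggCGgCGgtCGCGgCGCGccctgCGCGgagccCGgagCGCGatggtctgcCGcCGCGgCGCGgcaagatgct
Wnt3a holds 45 CG in these 300 bases, a count reached by 2.31% of all protein-coding promoters. Wnt9a holds 58, reached by 0.143%, the highest count of the 38 genes. A CpG island covered both start sites, of 2336 bp at Wnt3a and 1597 bp at Wnt9a. The gene with more CG was thus the one outside the inhibitor regions.

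A second pair, Wnt3 and Wnt9b, behaved alike. Wnt3 is needed for the primitive streak and Wnt9b for kidney tubules, and their start sites lie 24.3 kb apart on chromosome 11 with transcription away from each other. A K27R region of 115.6 kb (chr11:103568001-103683600) and a K27M region of 88.0 kb (chr11:103596601-103684600) held both start sites. In EZHIP this stretch was broken into 3 regions. The region of 24.8 kb (chr11:103596201-103621000) held the start site of Wnt9b, that of 13.2 kb (chr11:103626001-103639200) held the start site of Wnt3, and another of 24.4 kb (chr11:103652401-103676800) lay inside Wnt3 and touched 3 exons. EZHIP regions covered 64.2% of Wnt3 and 66.5% of Wnt9b, whereas K27M regions covered 100% and 64.7%. Here the K27M list reached 1.0 kb beyond the K27R region at the 3′ end of Wnt3.

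At Wnt6 and Wnt10a, which start 19.6 kb apart on chromosome 1 and run in the same direction, the pair was again split. A K27R region of 43.4 kb (chr1:74807201-74850600) held both start sites. Within it, a K27M region of 9.6 kb (chr1:74810201-74819800) held the start site of Wnt6 and reached 1.335 kb into the gene. Wnt10a, a gene of tooth and skin appendages, lay 18290 bp from this region. No EZHIP region fell inside the K27R region, the nearest being 59535 bp from the start of Wnt6 and 39911 bp from that of Wnt10a. Wnt1 and Wnt10b on chromosome 15, 11.7 kb apart, differed already in K27R. Wnt1, which patterns the midbrain and hindbrain, lay in regions of 24.4, 22.4 and 13.6 kb in K27R, K27M and EZHIP, each covering the whole gene. Wnt10b, known for its part in the choice between fat and bone cells, lay outside, 8420 bp from the K27R region.

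**Figure D3:**
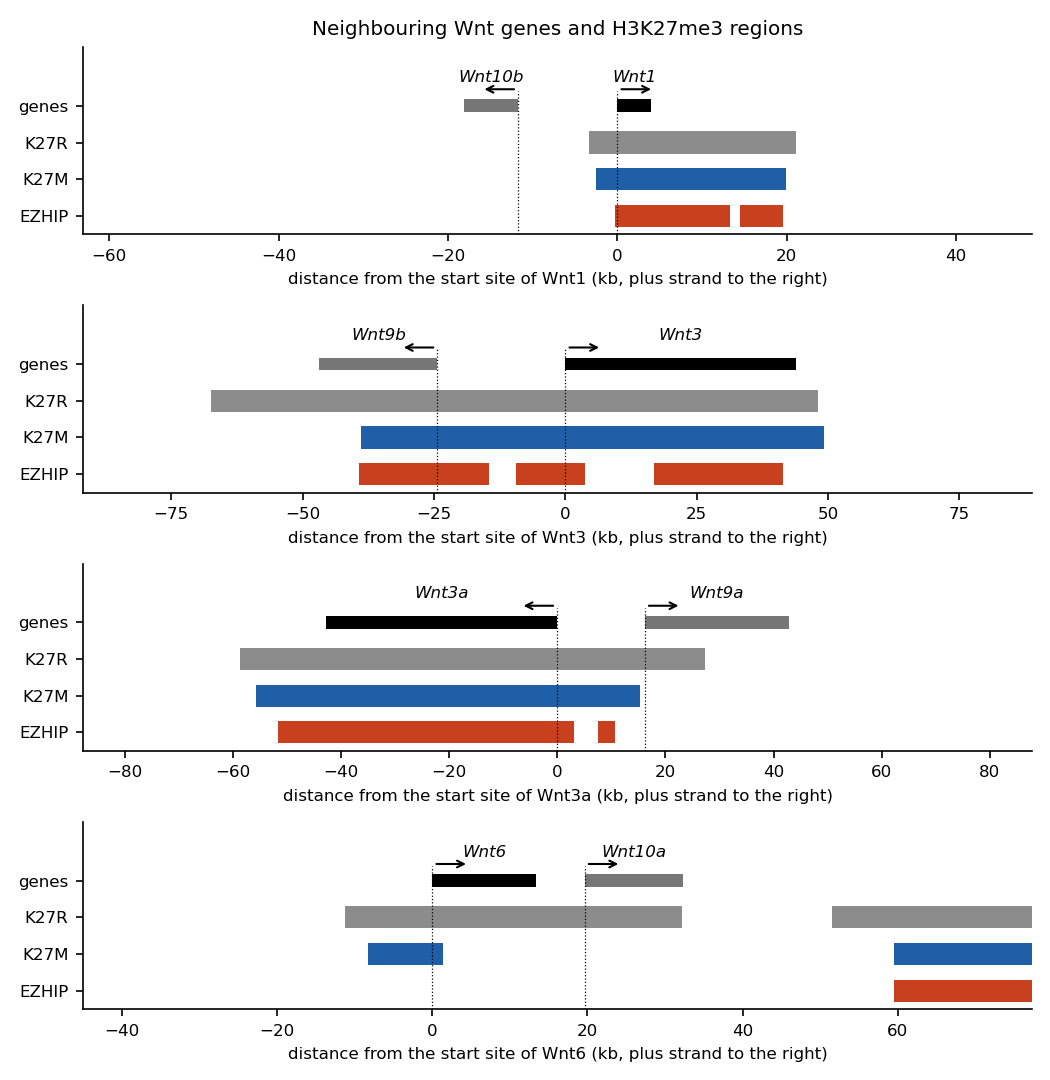
Annotated genes and H3K27me3 regions of the K27R, K27M and EZHIP lists around 4 pairs of neighbouring Wnt genes, by distance from the start site of 1 gene of each pair (x axis, kb), with arrows for the direction of transcription and dotted lines at the start sites. Only at Wnt3 and Wnt9b did both start sites lie in regions of all 3 lists, and regions at the right edge near Wnt10a are cut off by the frame.

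Wnt8b, a gene of the embryonic forebrain, lay in the widest K27R region of the family, 481.0 kb, which held the start sites of 6 genes. Its regions in K27M (44.6 kb) and EZHIP (44.0 kb) were nearly equal and covered the whole gene. K27M regions covered 76.6% of the 481.0 kb and EZHIP regions 74.9%, in 3 and 8 separate regions. Wnt7a, which sets dorsal identity in the limb, followed with 188.2, 46.4 and 22.0 kb in the 3 lists, where 4 K27M regions and 9 EZHIP regions lay within the K27R region. Wnt7b, a gene of the developing lung, had 61.6, 22.6 and 11.8 kb. Wnt5b, a close relative of Wnt5a, had 60.4, 9.4 and 7.2 kb, and Wnt2b, which acts with Wnt2 in the formation of the lung, 29.8, 4.8 and 5.2 kb. A further EZHIP region of 6.8 kb lay inside Wnt5b without touching an exon. Unlike at Wnt8b, the inhibitor regions at the other ligands of this paragraph kept the start site while most of the gene body was outside them. K27M regions covered 18.9% of Wnt7a, 29.9% of Wnt7b, 4.42% of Wnt5b and 15.5% of Wnt2b.

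Of the ligands kept in 1 inhibitor line, Wnt4 and Wnt6 were marked in K27M and Wnt5a in EZHIP. Wnt4, required for the kidney and the female gonad, lay in a K27R region of 47.0 kb (chr4:136825601-136872600) and a K27M region of 10.0 kb (chr4:136827401-136837400), and the nearest EZHIP region was 207204 bp away. Wnt5a, which acts on cell polarity and outgrowth, lay in a K27R region of 32.8 kb (chr14:29293601-29326400) and an EZHIP region of 8.8 kb (chr14:29317001-29325800). A K27M region of 3.4 kb (chr14:29321001-29324400) was present inside Wnt5a, but it began 3065 bp after the start site and covered 15.0% of the gene. This K27M region lay wholly within the EZHIP region at Wnt5a, so the lists differed there in how far the region extended. At Wnt4, by contrast, no EZHIP region touched the gene.

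The ligands kept in neither line were Wnt2, Wnt9a, Wnt10a and Wnt16. Their K27R regions measured 12.6, 86.0, 43.4 and 13.4 kb. Wnt2, a gene of the lung, and Wnt16, a gene of bone, were isolated: the nearest inhibitor regions lay 482416 bp from Wnt2 in both lists, and 420227 bp (K27M) and 424027 bp (EZHIP) from Wnt16, and their K27R regions held no other start site. Wnt8a, Wnt10b and Wnt11 were not marked in K27R, and no region of any list touched them. The nearest K27R region was 115367 bp from Wnt8a and 402379 bp from Wnt11, a gene of cell movements in gastrulation.

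Among the 10 receptors, Fzd3, Fzd9 and Fzd10 were marked in K27R and none in an inhibitor line. The promoter of Fzd9, a receptor studied in bone, is shown because it lay in the widest K27R region of a receptor, 118.2 kb, and was kept in neither line, and capitals again mark each CG.
Fzd9 (chr5:135727051-135727350, minus strand): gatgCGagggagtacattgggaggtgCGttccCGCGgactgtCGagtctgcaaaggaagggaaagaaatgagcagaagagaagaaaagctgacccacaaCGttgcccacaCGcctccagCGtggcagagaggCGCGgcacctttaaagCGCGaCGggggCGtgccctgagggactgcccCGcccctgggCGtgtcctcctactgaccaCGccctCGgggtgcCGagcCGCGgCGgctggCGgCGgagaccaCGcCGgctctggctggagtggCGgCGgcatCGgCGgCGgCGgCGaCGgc
It holds 34 CG, a count reached by 9.04% of all promoters, and an island of 1259 bp covers the start site. The K27R region reached 115.3 kb upstream and 2.899 kb downstream. In its upstream part, 1 K27M region and 5 EZHIP regions covered 12.2% and 31.0% of it, the nearest of them 50701 and 43101 bp from Fzd9. At Fzd3, which guides axons and sets cell polarity, the K27R region measured 59.2 kb. No K27M region lay within it. EZHIP regions lay on either side of the Fzd3 start site, 301 bp upstream and 1300 bp downstream, the latter 1.2 kb wide and inside an intron. The upstream region covered 10.1% of the CpG island there, and the downstream region none of it. The absence of Fzd3 from the EZHIP count thus rested on a gap of 301 bp. Fzd10 lay in a K27R region of 11.4 kb, the narrowest of the 25, and no inhibitor region was closer than 451282 bp.

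The other 7 receptors, Fzd1, Fzd2, Fzd4, Fzd5, Fzd6, Fzd7 and Fzd8, had no region of any list in the gene. The distance from their start sites to the nearest K27R region ranged from 25347 bp at Fzd8 to 395191 bp at Fzd7. All 10 receptors had a CpG island within 1000 bp of the start site, as did 17 of 19 ligands and 7 of 9 antagonists. Of all protein-coding genes 55.1% had one. With genes lacking an island counted as 0 bp, the median width was 1978.5 bp for receptors, 628 bp for ligands and 503 bp for antagonists. For all protein-coding genes it was 321 bp. The widest islands of the 38 genes belonged to Fzd5 (3170 bp), Fzd8 (2782 bp) and Fzd7 (2455 bp), which were unmarked in every list.

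Among the antagonists, Sfrp1, Sfrp5 and Dkk1 were kept in both lines, Sfrp2 and Frzb in EZHIP, and Dkk2 in K27M. None of the 6 antagonists marked in K27R was marked in neither line. Their K27R regions were wide, with a median of 166.1 kb against 53.7 kb in ligands and 59.2 kb in receptors. The promoters of Sfrp1 and Dkk1 are given with each CG in capitals. Sfrp1, a Wnt-binding protein, had the longest stretch common to both inhibitor lists in this class. Dkk1, which blocks Lrp5 and Lrp6 and is needed to form the head, was kept with few CG and was chosen after the values were seen.
Sfrp1 (chr8:24521724-24522023, plus strand): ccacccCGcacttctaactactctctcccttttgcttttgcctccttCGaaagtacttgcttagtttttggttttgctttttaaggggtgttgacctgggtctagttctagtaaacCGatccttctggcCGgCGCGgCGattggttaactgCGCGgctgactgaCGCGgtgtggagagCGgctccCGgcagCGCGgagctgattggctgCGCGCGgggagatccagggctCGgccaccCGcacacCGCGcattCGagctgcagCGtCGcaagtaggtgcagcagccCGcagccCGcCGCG
Dkk1 (chr19:30624106-30624405, minus strand): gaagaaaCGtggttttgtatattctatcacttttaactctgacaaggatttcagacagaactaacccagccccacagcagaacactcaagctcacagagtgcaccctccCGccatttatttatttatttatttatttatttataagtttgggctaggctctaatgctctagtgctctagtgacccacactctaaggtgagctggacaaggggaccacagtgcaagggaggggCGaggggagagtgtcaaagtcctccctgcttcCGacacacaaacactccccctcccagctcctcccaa
Dkk1 holds 4 CG, a count reached by 74.6% of all promoters, and its nearest CpG island lay 9866 bp away. Sfrp1 holds 29 CG, reached by 15.1%, and an island of 1162 bp covers its start site, yet the same lists held both start sites.

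Sfrp1 lay in a K27R region of 347.4 kb (chr8:24370401-24717800), a K27M region of 23.2 kb (chr8:24505801-24529000) and an EZHIP region of 22.6 kb (chr8:24505801-24528400). Both inhibitor regions began 16.173 kb upstream of the start site and ended 7.027 and 6.427 kb after it. They were nearly the same stretch, and in all 7.31% of the K27R region lay in K27M regions and 8.23% in EZHIP regions. Sfrp5, another Wnt-binding protein, lay in regions of 325.6 kb (chr19:42267401-42593000), 28.8 kb (chr19:42264801-42293600) and 16.6 kb (chr19:42271001-42287600), which all covered the whole gene. Its K27M region reached 2.6 kb past the K27R region. Dkk1 lay in regions of 232.6 kb (chr19:30399401-30632000), 13.0 kb (chr19:30613801-30626800) and 7.0 kb (chr19:30619601-30626600). Only 5.59% of that K27R region remained in K27M and 3.01% in EZHIP, and in both lines the part that remained was the single region over Dkk1, the only start site within the K27R region.

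Frzb, a cartilage protein of the Sfrp family, lay in a K27R region of 99.6 kb (chr2:80228001-80327600) and an EZHIP region of 3.6 kb (chr2:80285801-80289400), the narrowest EZHIP region of the family. The nearest K27M region was 917382 bp away. Sfrp2, also a Wnt-binding protein, lay in a K27R region of 37.4 kb (chr3:83559001-83596400) and an EZHIP region of 7.8 kb (chr3:83565801-83573600), with the nearest K27M region 621643 bp away. Dkk2, a close relative of Dkk1, showed the opposite, with a K27R region of 18.8 kb (chr3:131741601-131760400), a K27M region of 3.8 kb (chr3:131747401-131751200) and no EZHIP region within 935456 bp. The regions over Frzb and Dkk2 were the narrowest in their lists among the 38 genes, and both calls were lost when regions under 5000 bp were left out. Sfrp4, Dkk3 and Dkk4 were not marked in K27R. Of these Dkk4 was closest to a K27R region, at 8515 bp.

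Gene bodies were covered less in the inhibitor lines as well. Over the 25 genes marked in K27R, K27R regions covered a median of 100% of the annotated gene, K27M regions 15.0% (95% interval from order statistics 0 to 18.9) and EZHIP regions 10.0% (0 to 34.7). The inhibitor lines were not ordered by this measure, since the means were 31.9% and 31.2%, and without regions under 5000 bp the medians were 4.42% for K27M and 10.0% for EZHIP. For all K27R-marked genes these medians were 100%, 0% and 0%. K27R regions covered the whole gene in 15 of the 25, beside 4486 of all 6735 genes marked in K27R. K27M regions did so in 6 of the 25 (620 of the 6735) and EZHIP regions in 5 (406 of the 6735). No cover was left in 9 of the 25 in K27M and in 9 in EZHIP, beside 4318 and 4490 of the 6735. Whole cover in both inhibitor lines was found for Wnt1, Wnt3a, Wnt8b, Sfrp5 and Dkk1, of which Wnt1, Sfrp5 and Dkk1 are short genes of 3.981, 4.282 and 3.803 kb. K27M regions also covered all of Wnt3.

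**Figure D4:**
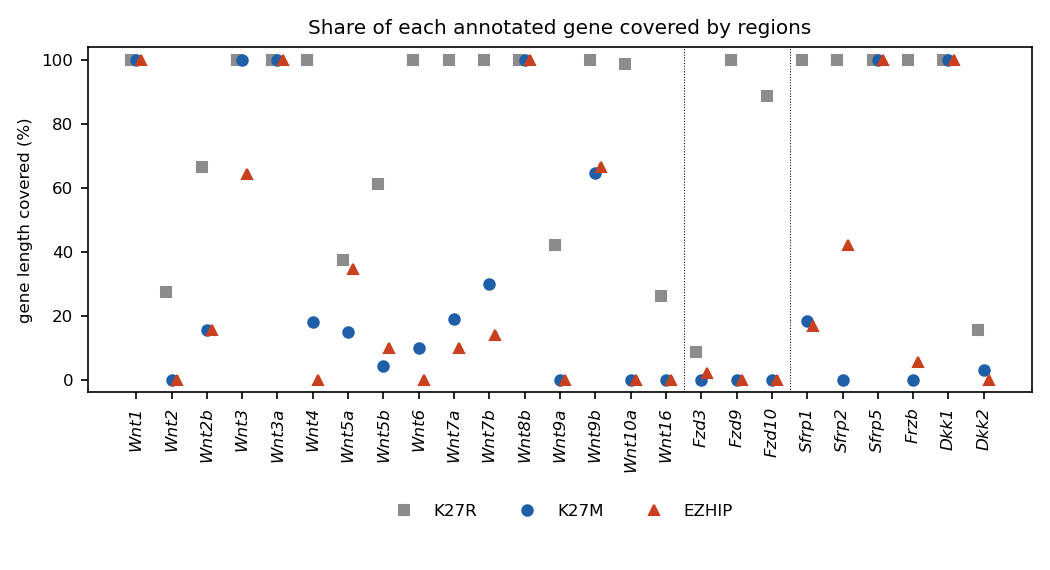
Percent of each annotated gene covered by H3K27me3 regions (y axis) in K27R (grey squares), K27M (blue circles) and EZHIP (red triangles) for the 25 genes marked in K27R, with dotted lines between ligands, receptors and antagonists. Genes fall into those at 100% in all 3 lists, those with part of the gene left in an inhibitor line, and those at 0% in both inhibitor lines.

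The width in K27R did not order the genes by what was kept. Fzd10, Wnt2 and Wnt16 had the 3 narrowest K27R regions and were kept in neither line, but Fzd9 at 118.2 kb was kept in neither as well, whereas Wnt1 at 24.4 kb was kept in both with 91.8% of its K27R region in K27M regions and 76.2% in EZHIP regions. The presence of a CpG island did not separate the Wnt genes either. An island within 1000 bp was present at 10 of the 12 genes kept in both lines (83.3%, the same share as among all genes kept in both) and at all 7 kept in neither, against 30.4% of all genes kept in neither. Wherever such an island was present, K27R regions covered it fully at each of the 23 marked genes, and K27M and EZHIP regions covered either the whole island or none of it, except at Fzd3. The median promoter CG count was 29 in genes kept in both lines and 18 in those kept in neither (37 and 12.5 among ligands). Median island widths, with 0 bp for genes without an island, were 878.5 and 1146 bp (880 and 437.5 bp among ligands). The 2 genes kept in both without an island nearby were Dkk1 and Wnt8b, whose promoter holds 6 CG and whose nearest island was 18034 bp away. The K27M and EZHIP regions over Wnt8b each overlapped 1 island, as did the K27M region over Dkk1, whereas the EZHIP region over Dkk1 overlapped 0.

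**Figure D5:**
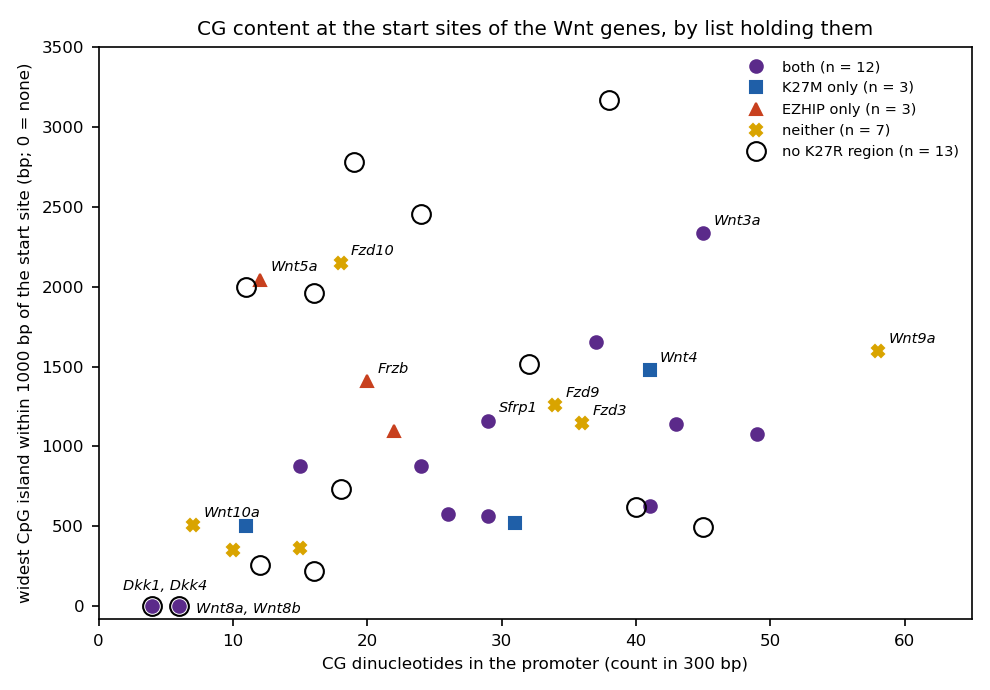
Number of CG in the 300 bp promoter (x axis) against the width of the widest CpG island within 1000 bp of the start site (y axis, bp, 0 where there was none) for the 38 genes, with symbols for the lists that held the start site. Genes kept in neither inhibitor line (crosses) spread from 7 to 58 CG and overlapped with genes kept in both (filled circles), which spread from 4 to 49.

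The rest of the pathway was examined through lists of 50 genes. The start sites of 22 lay in K27R regions, of 13 in K27M regions and of 12 in EZHIP regions, and 11 were kept in both. The shares marked, 44.0%, 26.0% and 24.0%, lay between those of the 38 genes and of all genes. Among genes marked in K27R, however, the shares kept were similar to those of the 38 genes. Of the 22, 13 were kept in K27M, 12 in EZHIP and 11 in both, beside 15, 15 and 12 of 25. For all K27R-marked genes these shares were 29.9%, 25.6% and 21.9%. Of 7 coreceptors and receptor partners, 2 were marked in K27R, 1 in K27M and 1 in EZHIP. Kremen2, a receptor for Dkk proteins, was kept in both with 11.0, 8.6 and 8.0 kb in K27R, K27M and EZHIP. Of 9 genes of the R-spondin axis, which raises the level of Frizzled at the cell surface, 5, 4 and 3 were marked. Lgr5, an R-spondin receptor of intestinal stem cells, had 113.6, 6.8 and 6.0 kb. The secreted proteins Rspo1 (86.8, 46.2 and 39.8 kb) and Rspo4 (364.2, 9.2 and 9.8 kb) were kept in both lines as well.

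Of 10 genes for secretion and other extracellular modulators, 6 were marked in K27R, 3 in K27M and 4 in EZHIP. Those kept in both were Draxin, an axon guidance protein annotated in mm9 as 2610109H07Rik, with 42.0, 16.4 and 13.0 kb, Notum, which removes the lipid from Wnt proteins, with 17.4, 10.2 and 9.0 kb, and Sost, the bone antagonist sclerostin, with 89.6, 34.2 and 24.8 kb. Of 16 cytoplasmic transducers, 6, 3 and 3 were marked. Those kept in both, Dact2, Nkd1 and Nkd2, are modulators that bind Dishevelled, and their K27R regions measured 364.8, 265.6 and 53.4 kb. Of 8 nuclear factors, 3, 2 and 1 were marked, and Pygo1, a partner of Bcl9, was kept in both with 14.2, 6.4 and 5.8 kb. Genes kept in both lines thus encoded secreted proteins, receptors, modulators of Dishevelled and 1 nuclear factor.

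The fibroblast label was set against start sites of marker genes, since the lists hold no RNA. Of 12 fibroblast genes, 11 lay outside the regions of all 3 lists, among them Col1a1, Col1a2, Col3a1, Fn1 and Vim. Pdgfra was marked in each, with regions of 35.2, 11.8 and 7.0 kb. Being unmarked was common, since 15615 of all 22350 protein-coding genes were not marked in K27R. Of 14 genes of epithelium, endothelium, blood and neurons, 9 were marked in K27R, 5 in K27M and 5 in EZHIP. For all genes the shares marked were 30.1%, 9.02% and 7.73%. Krt8, Krt18, Pecam1, Ptprc and Tubb3 of the 14 lay outside the regions of all 3 lists, like most of the fibroblast genes. As a whole, the K27R list held 12845 regions over 582.1 Mb, the K27M list 3736 over 51.0 Mb and the EZHIP list 4992 over 36.5 Mb. Neighbouring regions were at least 5200 bp apart in K27M and 1200 bp apart in EZHIP but as little as 0 bp apart in K27R. These shortest gaps are all below the maximum gap of 10000 bp that the methods give for H3K27me3 region calling. At Wnt3 and Wnt9b the gaps between the 3 EZHIP regions were 5000 and 13200 bp, where the K27M list had 1 region. After neighbours within 10000 bp of each other were merged, the median width at the start sites of the Wnt genes was 60.4 kb for K27R, 22.6 kb for K27M and 15.8 kb for EZHIP.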

How the data were processed

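H3K27me3 ChIP-Seq of MEFs was analysed for 3 of 5 libraries, with 1 library for each group, and groups were taken from the sample titles. The labels spell the target "H2K27me3" and name an H3K27me3 antibody clone. Per the labels, chromatin was cut to mononucleosomes with MNase. Reads were aligned by the authors with bowtie (version 1.0.0 in the submitters' processing notes) to mm9 and to a further species' genome used for scaling, and broad regions were called with MOSAiCS-HMM, for which the methods give a maximum gap of 10000 bp and a minimum size of 1000 bp. Some gaps in every list are shorter than that. Whether the scaling entered the calls, and their background library, are not given in the sources used here. The deposited lists hold the chromosome, start and end of each region on a 200 bp grid, with no score, so depth and precision are unknown.

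Regions were intersected with the 5′ ends and bodies of genes in GENCODE vM1 (mm9, NCBIM37) after a check that every region ended inside its chromosome. Widths count whole bins, and positions count from 1. For CpG islands, each CG of the mm9 genome scored 17 and other bases -1. Segments over 200 bp were kept (27400 islands) where G+C was 50% or more and the ratio of observed to expected CG exceeded 0.6. Promoter CG counts used 300 bp. Python 3.11.15, numpy 2.4.6, scipy 1.17.1 and matplotlib 3.10.9 were used, and the interval and island steps were tested on simulated data. No test between lines was possible, so counts are set beside those of all genes. The members, lists and alternatives were chosen with earlier results of these data known. Coordinates were given for genes kept in 1 inhibitor line, for the 3 widest inhibitor regions of a class and for genes sharing a K27R region. Promoters were printed for the longest stretch common to both inhibitor lists and for the widest K27R region kept in neither, in each class, and for Dkk1, chosen after its values were seen. Pathway genes were named when kept in both lines. The marker lists name 12 fibroblast genes and 14 of other cell types.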

Additional observations from a re-analysis of the deposited data

How the results depend on the processing

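A stricter score could not be applied, because the lists carry none. Leaving out regions under 2000 bp changed no gene. Leaving out those under 5000 bp removed Wnt2b from the K27M count, Frzb from the EZHIP count and Dkk2 from the K27M count. Fzd3 entered the EZHIP count, raising receptors there from 0 to 1, when regions up to 10000 bp apart were merged, when a start site within 5000 bp of a region was accepted, and when cover of 50% of the 5000 bp upstream was required in place of the start site. A distance of 5000 bp also added Wnt5a and Wnt9a to K27M. Under the upstream rule antagonists in EZHIP fell from 5 to 3 (Frzb and Dkk1 left), and Wnt1 and Wnt5a were kept in neither line. The same rule again added Wnt9a to K27M, removed Wnt2b and Dkk2 from K27M and removed Wnt2 from K27R. Genes kept in both lines fell from 12 to 9. Using any annotated start changed no gene. The other class counts stayed within 1.5 times under all of these settings. Mean gene cover over the 25 genes was 78.9% in K27R (median 100%), 31.9% in K27M (median 15.0%) and 31.2% in EZHIP (median 10.0%). With 5000 bp added upstream the medians were 21.9% in K27M and 18.6% in EZHIP. Without regions under 5000 bp the K27M median was 4.42%, below the 10.0% of EZHIP. The mean K27R width was 107.7 kb (median 60.4 kb). The cause of these shifts was not tested beyond the construction of each setting. Island counts with a 500 bp minimum, or with the island over the start site, stayed within 1.5 times. Limits: each line is 1 library without replicates, region lists carry no depth, the shortest gaps between their regions differ, and no RNA data were used here, so only the presence and extent of regions are compared.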
